A study of Homo sapiens with 12 samples.

Results

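The genes described here are 10 genes of matricellular proteins and of targets of the co-activator YAP, CCN1, CCN2, ANKRD1, AMOTL2, NT5E, IGFBP3, TGFBI, VCAN, AXL and F3, out of 60671 genes counted. They are a list of names put together with earlier results of these data in view, and each was matched by its symbol to 1 Ensembl gene. RNA sequencing of mRNA was done in LS180, an established human colorectal cancer line, in derivatives that carry a doxycycline-inducible construct for SOX9, for M303, a shortened form of SOX9, or for GFP. The 6 groups are the SOX9 line with and without doxycycline, the M303 line with and without it, and the GFP line with and without it, with 2 libraries in each. Doxycycline was given at 0.5 µg/ml for 24 h, and the labels name no other agent for the uninduced cells. All groups share the LS180 background and its own SOX9 gene, and the induced SOX9 or M303 comes on top of it. Each construct was analysed in 1 line, so a difference between constructs and a difference between lines cannot be told apart. Whether a line is 1 clone is not given in the sources used here, and no label states that the 2 libraries of a group are separate cultures. The p-values below therefore rest on the spread between libraries, which may be technical only.

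YAP, and its close relative TAZ, which WWTR1 encodes, are co-activators that the Hippo kinase cascade keeps out of the nucleus. They bind DNA through the TEAD factors, whose core site reads CATTCC, and CCN1, CCN2, ANKRD1 and AMOTL2 are among their standard target genes. Matricellular proteins are secreted into the extracellular matrix, where they modulate adhesion and growth factor signals rather than carry load. YAP activity in the intestine is known mainly from regeneration after injury and from tumours, and SOX9 is a transcription factor of intestinal crypt cells.

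Promoter sequences are shown first because the TEAD core site is the feature linked to the YAP targets among these genes. RefSeq promoters (GRCh38.p14) of 250 bases before to 50 bases after the start were given for 9 of the 10 genes, 11 promoters in all, AMOTL2 and AXL having 2 starts each. CATTCC or its reverse complement GGAATG was searched on both strands. It occurred 3 times in the CCN2 promoter (169, 104 and 95 bases before the start), 2 times in that of ANKRD1 (220 and 128 bases before it), once at the second AMOTL2 start (69 bases before it) and once at the second AXL start (212 bases before it). The promoters of NT5E, IGFBP3, TGFBI, VCAN and F3 held none. Of all 35116 promoters in the table, 14% held at least 1 copy and 0.128% held 3 or more. The SOX core ACAAT, on either strand, was in 1 of the 11 promoters, that of the first AXL start, and in 27.4% of all promoters. The AP-1 site TGANTCA was in those of ANKRD1 and F3, and in 7.71% of all. No match of one motif overlapped a match of another in these promoters, and a match describes letters, not binding. Bases outside these windows were not searched, so whether a gene without a match has sites elsewhere was not tested. The first 3 sequences below are those with CATTCC at CCN2 (chr6:131951323-131951622, minus strand), ANKRD1 (chr10:90921038-90921337, minus strand) and the second start of AMOTL2 (chr3:134374398-134374697, minus strand). The fourth is VCAN (chr5:83471494-83471793, plus strand), which had the highest fold change on SOX9 induction of the 9 of these genes that could be tested, and has none. Each is written 5′ to 3′ along the gene, with the CATTCC or GGAATG matches in capitals.
CCN2: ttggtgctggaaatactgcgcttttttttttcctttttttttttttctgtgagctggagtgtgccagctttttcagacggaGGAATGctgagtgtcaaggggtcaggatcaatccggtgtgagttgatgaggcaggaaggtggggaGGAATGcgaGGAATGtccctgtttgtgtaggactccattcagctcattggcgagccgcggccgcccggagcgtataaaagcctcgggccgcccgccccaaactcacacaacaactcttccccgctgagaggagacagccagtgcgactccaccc
ANKRD1: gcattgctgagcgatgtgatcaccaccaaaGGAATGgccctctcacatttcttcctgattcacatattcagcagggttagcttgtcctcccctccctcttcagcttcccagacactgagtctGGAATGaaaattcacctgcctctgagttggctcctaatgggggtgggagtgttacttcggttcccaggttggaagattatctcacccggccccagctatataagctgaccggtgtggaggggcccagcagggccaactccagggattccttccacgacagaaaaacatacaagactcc
AMOTL2: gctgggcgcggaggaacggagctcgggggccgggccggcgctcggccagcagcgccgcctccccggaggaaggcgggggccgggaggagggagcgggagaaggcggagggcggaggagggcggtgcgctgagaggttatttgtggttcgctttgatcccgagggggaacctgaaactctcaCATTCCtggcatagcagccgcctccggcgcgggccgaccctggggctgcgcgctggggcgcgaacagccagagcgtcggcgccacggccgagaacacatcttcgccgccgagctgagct
VCAN: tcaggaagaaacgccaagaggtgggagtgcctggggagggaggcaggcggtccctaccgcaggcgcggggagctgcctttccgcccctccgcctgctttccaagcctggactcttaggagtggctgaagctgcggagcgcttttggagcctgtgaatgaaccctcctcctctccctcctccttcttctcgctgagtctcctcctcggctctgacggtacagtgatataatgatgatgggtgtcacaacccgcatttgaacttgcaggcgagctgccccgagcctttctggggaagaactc

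Libraries held 31012775 to 48529770 counts, of mates rather than of fragments. The SOX9 gene itself stood at 712 and 761 CPM (counts scaled to the library's total with TMM factors) in induced SOX9 cells and 357 and 381 CPM in uninduced ones. It stood at 818 and 867 CPM in M303 cells with doxycycline and 399 and 367 CPM without it, and at 405 and 371 CPM in GFP cells with doxycycline and 399 and 392 CPM without it. The 4 libraries labelled as induced SOX9 or M303 were thus the highest in SOX9. A count per gene does not separate SOX9 from M303, nor GFP cells with doxycycline from those without it, so those labels were not checked. All 10 colon epithelium markers examined had at least 1 CPM in each group. Their summed level was 10700 CPM in both induced SOX9 libraries and 11200 to 12700 CPM in the uninduced SOX9 libraries. Of 10 fibroblast markers the sum was 2.60 to 2.98 CPM in induced and 2.67 to 2.76 CPM in uninduced SOX9 cells, with THY1 and COL6A3 at 0 in the induced ones. In the same order the sums of 8 endothelial markers were 2.19 to 3.20 CPM and 2.11 to 3.0 CPM, with TEK and EMCN at 0 in induced cells, and those of 8 immune markers were 2.51 to 3.85 CPM and 2.53 to 3.37 CPM, with CD3E and AIF1 at 0 in every library.

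Induction of SOX9 asks how the wild-type factor changes the cells. Of the 10 genes, 5 rose by 1.45-fold to 2.35-fold (VCAN, CCN2, NT5E, IGFBP3 and TGFBI) and 0 fell. CCN1, AMOTL2, AXL and F3 did not pass the test, and ANKRD1 had too few counts to be tested. A gene was called at an adjusted p under 0.05 in edgeR's quasi-likelihood test, adjusted over 18219 genes, and 2.97% of all genes tested were called in this comparison (1.81% higher, 1.16% lower). The median log2 fold change was 0.53 over the 9 genes tested and 0.01 over all genes tested. For 7 genes both induced SOX9 libraries lay above all 10 other libraries, which held for 7.70% of all genes tested. For the same 7, as that count implies, both induced SOX9 libraries lay above both uninduced ones, against 23.2% of all. The second count is thus not a separate result. Without replicate 2 of the induced SOX9 cells only VCAN, CCN2 and NT5E of the 9 were called. Over all genes 541 were called, and 231 without that library, 270 without replicate 1 of the induced and 301 without replicate 2 of the uninduced SOX9 cells. In bulk RNA, fewer cells of a type and less RNA per cell cannot be told apart.

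**Figure D1:**
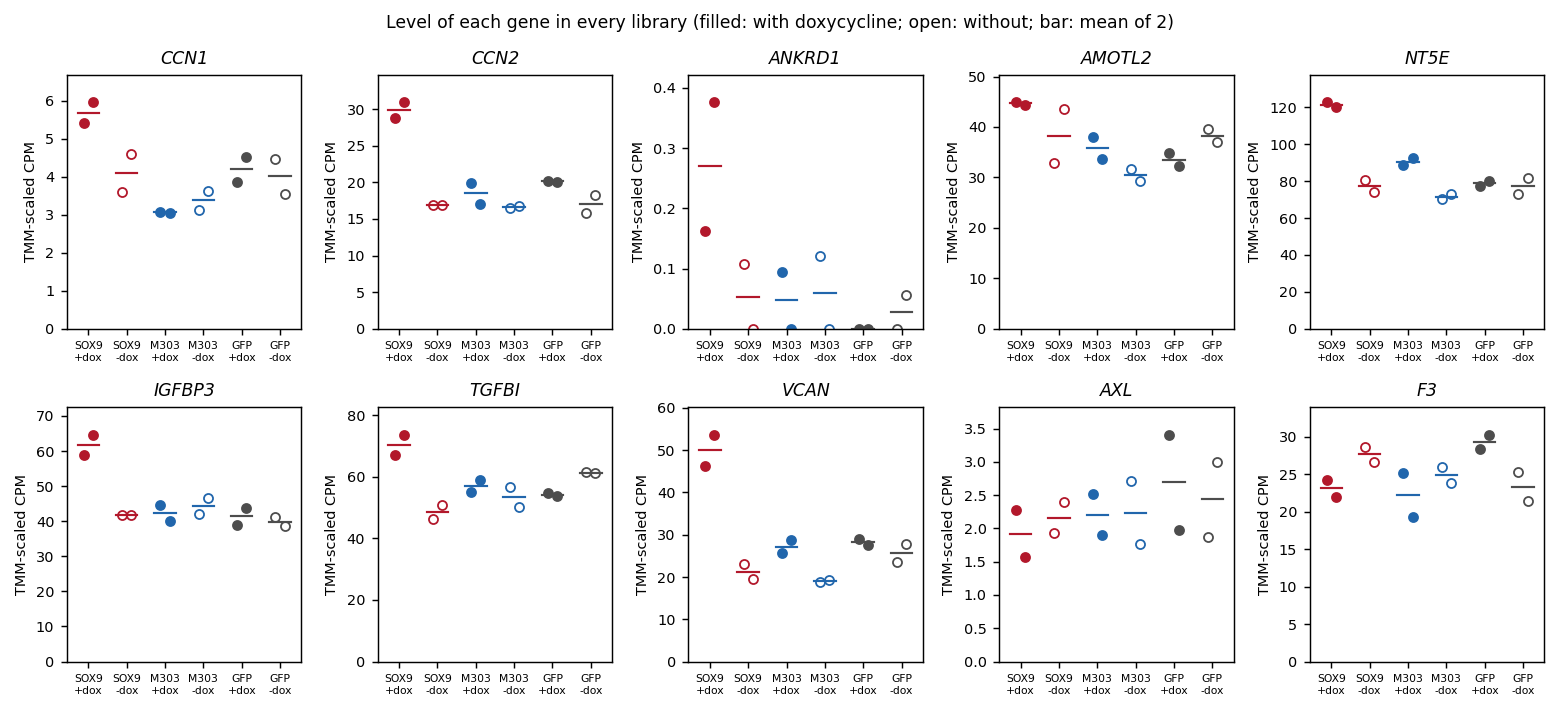
Level of each of the 10 genes in every library, in TMM-scaled CPM on an axis that starts at 0, for the 6 groups from induced SOX9 on the left to uninduced GFP on the right. Filled points are libraries with doxycycline, open points libraries without it, and bars the mean of 2. VCAN, with 46.3 and 53.7 CPM in induced SOX9 cells and at most 28.9 CPM elsewhere, shows the widest gap relative to its level. In CPM the gap of NT5E is wider (123 and 120 CPM, against at most 92.4 CPM elsewhere).

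Of the secreted signalling modulators, CCN2 and CCN1 belong to one protein family. CCN2 (CTGF, ENSG00000118523, GRCh38 chromosome 6, 131948176 to 131951372, minus strand) binds integrins and growth factors in the matrix. CCN2 had 28.8 and 31.0 CPM in induced SOX9 cells and 16.9 and 16.9 CPM in uninduced ones. M303 cells had 19.9 and 17.1 CPM of CCN2 with doxycycline and 16.5 and 16.7 CPM without it, and GFP cells 20.2 and 20.1 CPM with it and 15.8 and 18.3 CPM without it. The groups did not overlap in any of the 3 lines, but the step was widest in the SOX9 line. There CCN2 averaged 29.9 ± 1.51 CPM with doxycycline and 16.9 ± 0.00532 CPM without it (SD, n = 2 each), a rise of 0.82 on the log2 scale (SE 0.12, 95% interval 0.57 to 1.07, adjusted p = 0.00023, edgeR). The log2 change was 0.15 in M303 cells and 0.24 in GFP cells, neither called. CCN2 shares exon bases with an unnamed gene on the opposite strand that had at most 8 counts, against up to 1422 for CCN2.

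CCN1 (CYR61, ENSG00000142871, chromosome 1, 85580761 to 85584589, plus strand), an integrin ligand like CCN2, was low. It had 5.40 and 5.97 CPM in induced SOX9 cells, against 3.59 and 4.59 CPM in uninduced ones. In M303 cells CCN1 stood at 3.07 and 3.05 CPM with doxycycline and 3.13 and 3.63 CPM without it, and in GFP cells at 3.86 and 4.52 CPM with it and 4.47 and 3.55 CPM without it. Both induced SOX9 libraries were the highest of all 12, yet the log2 change of 0.47 (95% interval -0.01 to 0.96, adjusted p = 0.382, edgeR) did not pass.

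Of the matrix proteins, VCAN (versican, ENSG00000038427, chromosome 5, 83471618 to 83582303, plus strand), a large hyaluronan-binding proteoglycan, had the highest fold change of the 9 genes. Its level was 46.3 and 53.7 CPM in induced SOX9 cells and 23.0 and 19.5 CPM in uninduced ones. M303 cells had 25.7 and 28.7 CPM of VCAN with doxycycline and 18.9 and 19.4 CPM without it, and GFP cells had 28.9 and 27.6 CPM with it and 23.6 and 27.9 CPM without it. The SOX9 and M303 lines separated by doxycycline and the GFP line overlapped. VCAN rose 2.35-fold on SOX9 induction (log2 1.23, SE 0.12, 95% interval 0.98 to 1.48, adjusted p = 9.85e-07, edgeR). The opposite-strand gene VCAN-AS1, which shares exon bases with it, had at most 2 counts, against up to 2282 for VCAN.

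TGFBI (ENSG00000120708, chromosome 5, 136028988 to 136063818, plus strand) encodes a collagen- and integrin-binding protein first described as induced by TGF-beta. It had 67.2 and 73.7 CPM in induced SOX9 cells and 46.4 and 50.8 CPM in uninduced ones. M303 cells had 54.9 and 59.0 CPM of TGFBI with doxycycline and 56.6 and 50.1 CPM without it, while GFP cells had 54.8 and 53.6 CPM with it and 61.4 and 61.3 CPM without it. Doxycycline thus went with a higher level in the SOX9 line, overlapping levels in the M303 line and a lower level in the GFP line, where the change was not called (log2 -0.18, 95% interval -0.37 to 0.01, adjusted p = 1.0, edgeR). On SOX9 induction TGFBI rose by 0.53 (SE 0.09, adjusted p = 0.00107), but it missed the threshold without replicate 2 of the induced SOX9 cells (adjusted p = 0.0509).

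IGFBP3 (ENSG00000146674, chromosome 7, 45912245 to 45921874, minus strand) binds insulin-like growth factors outside the cell. IGFBP3 stood at 59.0 and 64.7 CPM in induced SOX9 cells and 41.9 and 41.8 CPM in uninduced ones. In M303 cells it was 44.7 and 40.0 CPM with doxycycline and 42.2 and 46.7 CPM without it, and in GFP cells 38.9 and 43.9 CPM with it and 41.1 and 38.5 CPM without it. Outside induced SOX9 cells the 10 libraries spanned only 38.5 to 46.7 CPM. The rise on SOX9 induction was 0.56 on the log2 scale (SE 0.10, 95% interval 0.36 to 0.77, adjusted p = 0.00149, edgeR), and it too missed the threshold without replicate 2 of the induced SOX9 cells (adjusted p = 0.0593).

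The cell surface genes NT5E, F3 and AXL differed in what they did. NT5E (CD73, ENSG00000135318, chromosome 6, 85449584 to 85495791, plus strand) makes adenosine from extracellular AMP. Its level was 123 and 120 CPM in induced SOX9 cells and 80.5 and 74.0 CPM in uninduced ones. M303 cells had 88.5 and 92.4 CPM of NT5E with doxycycline and 70.5 and 72.8 CPM without it, and GFP cells 77.2 and 80.3 CPM with it and 72.9 and 81.9 CPM without it. NT5E was separated by doxycycline in the SOX9 and M303 lines, with the M303 libraries between the induced SOX9 and the uninduced levels. It rose 1.57-fold on SOX9 induction (log2 0.65, SE 0.08, 95% interval 0.48 to 0.82, adjusted p = 3.15e-05, edgeR).

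F3 (tissue factor, ENSG00000117525, chromosome 1, 94529173 to 94541759, minus strand) starts the extrinsic coagulation cascade. It had 24.3 and 22 CPM in induced SOX9 cells and 28.6 and 26.7 CPM in uninduced ones. M303 cells had 25.2 and 19.3 CPM of F3 with doxycycline and 26.0 and 23.9 CPM without it, and GFP cells had 28.4 and 30.3 CPM with it and 25.3 and 21.4 CPM without it. F3 was the only one of the 9 tested genes whose SOX9 groups separated with the induced libraries lower, as 21.5% of all genes tested did, while the GFP groups separated the other way. The log2 changes were -0.26 on SOX9 induction (95% interval -0.52 to 0.01, adjusted p = 0.400) and 0.33 on GFP induction (95% interval 0.06 to 0.60, adjusted p = 1.0), neither called by edgeR.

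AXL (ENSG00000167601, chromosome 19, 41219223 to 41261766, plus strand), a receptor tyrosine kinase for GAS6, was barely expressed. It had 2.27 and 1.57 CPM in induced SOX9 cells and 1.93 and 2.39 CPM in uninduced ones. Over all 12 libraries AXL ranged from 1.57 to 3.41 CPM, and the groups overlapped in every line. The log2 change on SOX9 induction was -0.16 with a 95% interval of -0.92 to 0.61 (adjusted p = 0.917, edgeR), which includes the changes of IGFBP3 and TGFBI but not those of VCAN, CCN2 and NT5E.

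Inside the cell, AMOTL2 (ENSG00000114019, chromosome 3, 134355874 to 134375479, minus strand), a junctional angiomotin protein that binds and restrains YAP, had 45.0 and 44.4 CPM in induced SOX9 cells and 32.8 and 43.5 CPM in uninduced ones. M303 cells had 38.0 and 33.7 CPM of AMOTL2 with doxycycline and 31.6 and 29.3 CPM without it, and GFP cells 34.8 and 32.2 CPM with it and 39.6 and 37.0 CPM without it. The uninduced SOX9 libraries were farther apart than any other pair. The log2 change was 0.23 on SOX9 induction (95% interval -0.01 to 0.47, adjusted p = 0.403, edgeR) and 0.24 on M303 induction (95% interval -0.01 to 0.48, adjusted p = 1.0).

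ANKRD1 (ENSG00000148677, chromosome 10, 90912096 to 90921087, minus strand), a nuclear ankyrin repeat protein of striated muscle and a standard YAP readout, was near the limit of detection. Its raw counts were 8 and 12 in induced SOX9 cells and 4 and 0 in uninduced ones. M303 cells had 4 and 0 counts of ANKRD1 with doxycycline and 4 and 0 without it, and GFP cells had 0 and 0 with it and 0 and 2 without it. The induced SOX9 libraries were again the highest, but at this depth no difference was detectable (adjusted p = 0.943 for SOX9 induction in an edgeR fit without the filter on low counts).

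**Figure D2:**
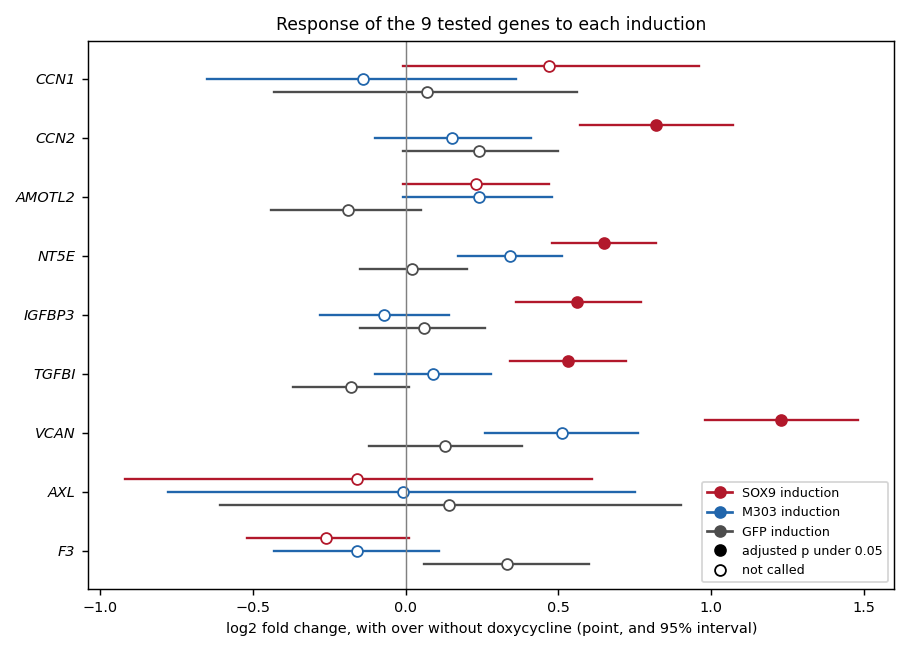
Log2 fold change of the 9 tested genes, with over without doxycycline, for SOX9, M303 and GFP induction (points, with 95% intervals as lines). Filled points have an adjusted p under 0.05 in edgeR's test. VCAN (1.23), CCN2 (0.82), NT5E (0.65), IGFBP3 (0.56) and TGFBI (0.53) are filled for SOX9 induction, and no point is filled for M303 or GFP.

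M303 induction asks what the shortened SOX9 does. None of the 9 genes was called (0 of 9) in edgeR's test or by DESeq2. By edgeR 0.00549% of all genes tested were called, which was 1 gene, SOX9 itself (log2 1.14, adjusted p = 2.84e-08). NT5E and VCAN, 2 of the 9, had an unadjusted p under 0.05 with a higher level, against 1.96% of all. VCAN was 0.51 higher (95% interval 0.26 to 0.76, adjusted p = 0.832) and NT5E 0.34 higher (95% interval 0.17 to 0.51, adjusted p = 0.832). The other 7 log2 changes ran from -0.16 for F3 to 0.24 for AMOTL2, each with an adjusted p of 1.0. For 4 genes, CCN2, AMOTL2, NT5E and VCAN, both M303 libraries with doxycycline lay above both without it, which held for 17.1% of all genes tested. For CCN1 both lay below, which held for 16.8% of all. The median log2 change of the 9 genes was 0.09, against 0.00 over all genes tested.

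GFP induction asks what doxycycline and an unrelated protein do. It gave 0 calls among the 9 genes and 0% among all genes tested in edgeR's test, and DESeq2 called none of the 9 and 2 of all genes. Only F3 of the 9 had an unadjusted p under 0.05, against 3.18% of all genes tested. The log2 changes ran from -0.19 for AMOTL2 to 0.33 for F3. Both GFP libraries with doxycycline lay above both without it for CCN2 and F3, which held for 13.5% of all genes tested, and below them for AMOTL2 and TGFBI, which held for 13.8%.

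The differences between inductions, tested as interaction terms, ask how far the SOX9 response goes beyond that of another line. The comparisons share the SOX9 libraries and are given side by side. Against GFP induction 3 of the 9 genes had a larger SOX9 response, against 0.895% of all genes tested called in either direction and 0.631% higher. VCAN differed by 1.10 (95% interval 0.75 to 1.45, adjusted p = 0.000839, edgeR), TGFBI by 0.71 (0.44 to 0.98, adjusted p = 0.00486) and NT5E by 0.63 (0.39 to 0.87, adjusted p = 0.0056). CCN2 differed by 0.58 (0.22 to 0.94, adjusted p = 0.179) and IGFBP3 by 0.50 (0.21 to 0.79, adjusted p = 0.134), which did not pass, and F3 by -0.59 (-0.97 to -0.20, adjusted p = 0.218). NT5E lost its call without replicate 1 of the induced SOX9 cells (adjusted p = 0.053), and TGFBI without replicate 2 (adjusted p = 0.062).

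Against M303 induction, IGFBP3 alone was called of the 9 genes, with a difference of 0.63 (95% interval 0.34 to 0.92, adjusted p = 0.0428, edgeR), against 0.489% of all genes tested. That call was lost when any 1 of the 8 SOX9 or M303 libraries was left out (adjusted p = 0.0504 to 0.337) and in a fit that is not robust (0.0627), while DESeq2 called CCN2 and VCAN as well (adjusted p = 0.0493 and 0.0195). In edgeR's test VCAN differed by 0.72 (0.37 to 1.08, adjusted p = 0.0695), CCN2 by 0.67 (0.31 to 1.03, adjusted p = 0.135), TGFBI by 0.44 (0.17 to 0.71, adjusted p = 0.238) and NT5E by 0.32 (0.08 to 0.56, adjusted p = 0.5). For AMOTL2 the difference was -0.01 (-0.35 to 0.34, adjusted p = 1.0), with a sign that turned under scaling by total counts (0.02). Between M303 and GFP induction none of the 9 was called by edgeR or DESeq2. By edgeR 0.00549% of all genes tested were called, which was 1 gene, SOX9 itself (adjusted p = 7.92e-06). There 5 of the 9 had an unadjusted p under 0.05, against 3.94% of all, with higher changes in M303 cells for AMOTL2, NT5E, TGFBI and VCAN and a lower one for F3, and every adjusted p was at least 0.992.

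The uninduced lines show where the genes start. Of the 9 genes, 0 were called in the SOX9 line or the M303 line against the GFP line by edgeR or DESeq2, against 0% and 0.00549% of all genes tested by edgeR. At an unadjusted p under 0.05 there were 2 of the 9 in the SOX9 line (TGFBI and VCAN), against 4.75% of all, and 3 in the M303 line (AMOTL2, TGFBI and VCAN), against 6.09% of all. TGFBI was lower in the SOX9 line, at 46.4 and 50.8 CPM, against 61.4 and 61.3 CPM in the GFP line (log2 -0.34, unadjusted p = 0.00149, adjusted p = 0.92, edgeR). The log2 difference of VCAN from the GFP line was -0.28 in the SOX9 line (adjusted p = 0.92) and -0.43 in the M303 line (adjusted p = 0.799). For both genes the induced SOX9 libraries lay above every library of the other lines.

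Per kilobase of the counted gene model, the order of mean levels in induced SOX9 cells was NT5E (26.8 CPM per kilobase), IGFBP3 (13.5), CCN2 (12.8), TGFBI (9.13), F3 (8.02), AMOTL2 (7.47), VCAN (3.41), CCN1 (1.54), AXL (0.374) and ANKRD1 (0.151). In uninduced SOX9 cells it was NT5E (17 CPM per kilobase), F3 (9.59), IGFBP3 (9.16), CCN2 (7.25), AMOTL2 (6.38), TGFBI (6.30), VCAN (1.45), CCN1 (1.11), AXL (0.421) and ANKRD1 (0.0299). Neighbours in this order whose means lay within their summed SDs were, in induced cells, IGFBP3 and CCN2 (SD 0.876 and 0.644), TGFBI and F3, and F3 and AMOTL2. In uninduced cells they were F3 and IGFBP3 (SD 0.477 and 0.0157), CCN2 and AMOTL2, AMOTL2 and TGFBI, and VCAN and CCN1. VCAN, with the highest fold change of the 9 tested genes, ranked low by level per length in both groups.

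All 26 listed genes of the Hippo pathway were tested. Whether the pathway regulates the genes described here was not tested. On SOX9 induction 3 of the 26 pathway genes rose and 0 fell, against 1.81% higher and 1.16% lower of all genes tested. The median log2 change was 0.14, against 0.01 over all genes tested. WWTR1, which encodes TAZ, had 33.0 and 32.3 CPM in induced SOX9 cells and 20.5 and 17.3 CPM in uninduced ones, and rose by 0.79 (SE 0.13, adjusted p = 0.000616, edgeR). YAP1 had 164 and 159 CPM in induced and 149 and 148 CPM in uninduced SOX9 cells and did not pass (log2 0.12, 95% interval -0.04 to 0.28, adjusted p = 0.528). WWC2, a scaffold that activates the LATS kinases, rose by 0.73 (37.6 and 35.7 CPM, against 21.9 and 22.3 CPM without doxycycline, adjusted p = 0.000241). AMOT, an angiomotin like AMOTL2, rose by 0.57 (28.2 and 33.9 CPM, against 21.3 and 20.5 CPM, adjusted p = 0.0239), a call that was lost without replicate 2 of the induced or either library of the uninduced SOX9 cells (adjusted p up to 0.395). The log2 changes of the TEAD genes were 0.22 for TEAD1, 0.60 for TEAD2, 0.16 for TEAD3 and -0.12 for TEAD4, with adjusted p-values of 0.23, 0.188, 0.565 and 0.711. TEAD2 also changed by 0.72 on GFP induction (unadjusted p = 0.00436, edgeR) and by -0.41 on M303 induction, neither called. WWC2 also had a larger SOX9 response than GFP (difference 0.68, adjusted p = 0.0323) and M303 (difference 0.79, adjusted p = 0.0131) responses, but the first call was lost without any 1 of the 8 SOX9 or GFP libraries (adjusted p up to 0.215), and the second without either induced SOX9 library, replicate 1 of uninduced or replicate 2 of induced M303 cells (adjusted p up to 0.133). The SOX9 response of WWTR1 differed by 0.59 from the M303 response (adjusted p = 0.303), not called by edgeR or DESeq2. It differed by 0.68 from the GFP response, which edgeR's test did not call (adjusted p = 0.11), while it was called by DESeq2 (0.67, adjusted p = 0.0489), without the filter on low counts (0.67, adjusted p = 0.0386) and without replicate 1 of uninduced GFP cells (0.83, adjusted p = 0.0269).

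**Figure D3:**
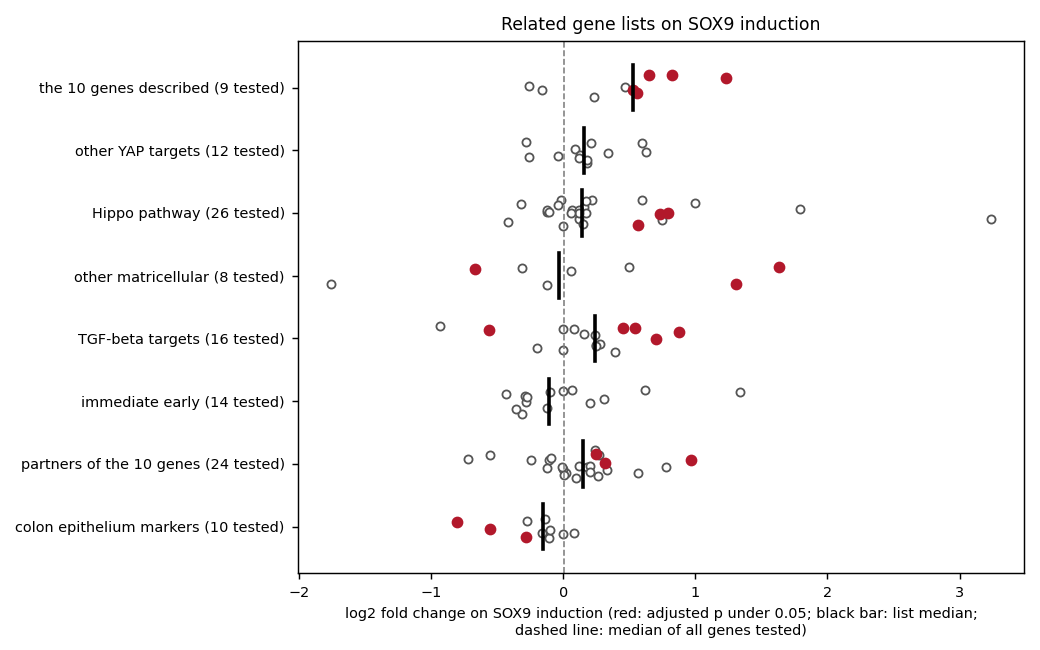
Log2 fold change on SOX9 induction of the genes in each related list (points; red, adjusted p under 0.05 in edgeR's test), with the list median as a black bar and the median of all genes tested (0.01) as a dashed line. The median is 0.53 for the 9 tested genes described here and 0.16 for 12 other YAP targets, none of which is red.

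Of the 14 other YAP targets 12 could be tested. They had 0 calls on SOX9 induction in edgeR's test, against 2.97% of all genes tested, and 0 by DESeq2. Their median log2 change was 0.16. They ran from -0.28 for FJX1 to 0.63 for CCDC80, and TGFB2, a TGF-beta ligand, stood at 0.60 (adjusted p = 0.111, edgeR). An unadjusted p under 0.05 was found for 4 of the 12, PTPN14, TGFB2 and MYOF with higher and NUAK2 with lower levels, against 13.8% of all genes tested.

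Of 17 other matricellular genes 8 could be tested, with a median log2 change of -0.03. On SOX9 induction 2 rose and 1 fell, against 1.81% higher and 1.16% lower of all genes tested. SMOC1 and SMOC2 encode related calcium-binding matrix proteins. SMOC1 had 43.4 and 46.6 CPM in induced SOX9 cells and 15.5 and 13.6 CPM in uninduced ones (log2 1.63, adjusted p = 1.3e-07, edgeR). SMOC2 had 110 and 115 CPM in induced SOX9 cells and 43.4 and 47.2 CPM in uninduced ones (log2 1.31, adjusted p = 1.45e-08). THBS1, thrombospondin 1, fell to 12.8 and 9.55 CPM in induced SOX9 cells, against 17.8 and 18.1 CPM in uninduced ones (log2 -0.67, adjusted p = 0.0135), which did not hold when replicate 2 of the induced or of the uninduced SOX9 cells was left out (adjusted p = 0.309 and 0.0674). The SOX9 response of SMOC1 and SMOC2 exceeded the GFP response by 1.64 and 1.40 (adjusted p = 4.39e-05 and 2.52e-06) and the M303 response by 1.44 and 0.81 (adjusted p = 0.000342 and 0.00202).

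Of the 37 ligands, receptors, enzymes and matrix partners of the 10 genes, 24 could be tested, with a median of 0.15. On SOX9 induction 3 rose and 0 fell, against 1.81% higher and 1.16% lower of all genes tested. HAPLN3, which links hyaluronan to proteoglycans such as versican, rose by 0.97 (11.5 and 9.80 CPM in induced SOX9 cells, 5.57 and 5.35 CPM in uninduced ones, adjusted p = 0.00594, edgeR). ITGAV, an integrin chain that binds CCN proteins, rose by 0.32 (adjusted p = 0.031), and CD44, a hyaluronan receptor, by 0.25 (adjusted p = 0.0454). HAPLN3 lost its call without replicate 1 of the induced or replicate 2 of the uninduced SOX9 cells (adjusted p up to 0.144), ITGAV without any 1 of the 4 SOX9 libraries or replicate 2 of uninduced M303 cells (up to 0.265), and CD44 without any 1 of the 8 SOX9 or M303 libraries (up to 0.447), with RLE size factors (0.0543), without the filter on low counts (0.0559) and in a fit of only the lines compared (0.0638).

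Of 16 targets and pathway genes of the TGF-beta family, which includes the BMPs, all were tested, with a median of 0.24. On SOX9 induction 4 rose and 1 fell, against 1.81% higher and 1.16% lower of all genes tested. ID4 rose by 0.88 (16.5 and 17.9 CPM in induced SOX9 cells, 9.42 and 9.21 CPM in uninduced ones, adjusted p = 0.00157, edgeR). The feedback inhibitors SKIL, PMEPA1 and SMAD7 rose by 0.54, 0.70 and 0.45 (adjusted p = 0.0112, 0.0243 and 0.0262), and BHLHE40, a circadian and hypoxia repressor, fell by 0.56 (adjusted p = 0.00756). Without replicate 2 of the induced SOX9 cells the calls of SKIL, PMEPA1, SMAD7 and BHLHE40 were lost (adjusted p = 0.178, 0.375, 0.544 and 0.0624), as were those of PMEPA1 and SMAD7 without replicate 1 of the uninduced ones (0.206 and 0.143), of SKIL, SMAD7 and BHLHE40 without replicate 2 of these (0.134, 0.0600 and 0.072), and of BHLHE40 without replicate 1 of the induced ones (0.117). Of 14 immediate early genes, which respond within minutes to growth factors and stress, 0 were called by edgeR and 1, ZFP36, by DESeq2. Their median was -0.11. An unadjusted p under 0.05 in edgeR's test was found for 6 of the 14, against 13.8% of all genes tested. Of these 6, JUN and FOSL1 were higher and EGR1, IER3, JUNB and ZFP36 lower. Of the 10 colon epithelium markers CDX1, TFF3 and VIL1 fell by 0.55, 0.80 and 0.28 on the log2 scale (adjusted p = 0.0127, 0.0339 and 0.0446), and 0 rose. Of all genes tested 1.16% were called lower and 1.81% higher. CDX1 lost its call without either induced library or replicate 2 of the uninduced SOX9 cells (adjusted p up to 0.141), TFF3 without any 1 of the 8 SOX9 or M303 libraries (up to 0.291), and VIL1 without any of these 8 but replicate 1 of the uninduced SOX9 cells (up to 0.409), with total counts for scaling (0.0641), in a fit that is not robust (0.0519) and in one of only the lines compared (0.0683). Their part in the changes above was not tested. On M303 induction edgeR called no gene of these lists, against 0.00549% of all genes tested. DESeq2 called SMOC2 there (log2 0.50, adjusted p = 0.177 in edgeR's test). Of the TGF-beta family, partner, immediate early and colon marker lists, edgeR called 0 genes for SOX9 against GFP induction and 0 against M303 induction. These comparisons called only 0.895% and 0.489% of all genes tested. AMOT and THBS1 were called in neither. ID4 averaged 9.97 CPM in GFP cells with doxycycline and 7.64 CPM without it. DESeq2 called TFF3 for SOX9 against GFP induction (log2 -1.02, adjusted p = 0.0271). Some alternatives also called TFF3 there, and CDX1 against GFP and M303.

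**Figure D4:**
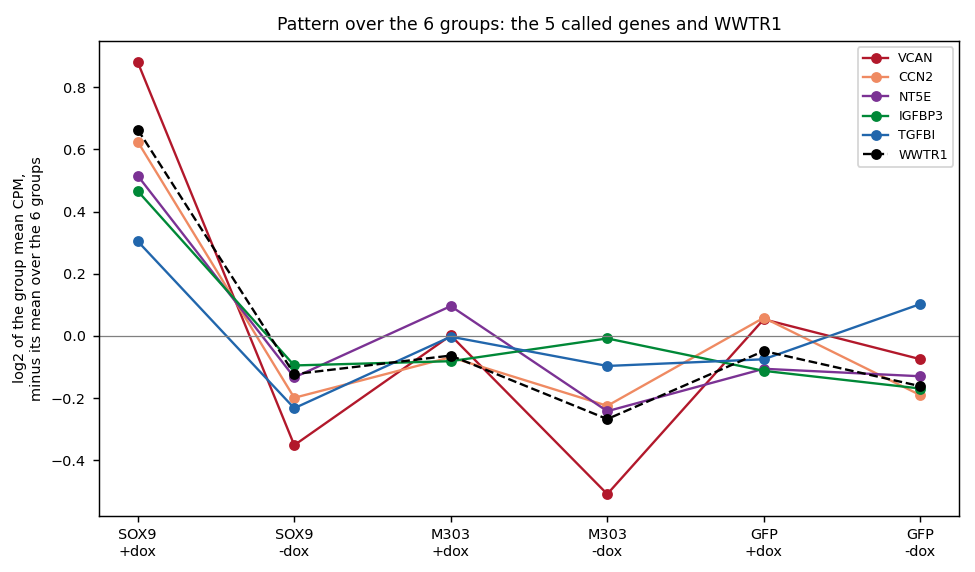
Pattern of the 5 called genes and WWTR1 over the 6 groups, as the log2 of the group mean CPM minus its mean over the 6 groups (n = 2 libraries a group). All 6 lines peak in induced SOX9 cells, and VCAN spans the widest range. All 6 genes were called higher on SOX9 induction, so the shared peak follows largely from the choice of genes.

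The likeness of 2 genes was measured as the Euclidean distance between their 6 centred group means (log2 CPM), among 11764 genes. It is a description, since all genes share the same 12 libraries. The nearest to CCN2 were ZNF37BP (distance 0.10), WWTR1 (0.14) and FBXO32 (0.14). The nearest to NT5E were ELAPOR2 (0.10), RCAN3 (0.14) and ELAPOR1 (0.14). IGFBP3 was nearest to H3P6 (0.07), FZD10-AS1 (0.08) and PCMTD1 (0.10), and TGFBI to MYADM (0.07), MEMO1 (0.08) and FZD1 (0.10). VCAN had more distant neighbours, ADRA2A (0.22), CD109 (0.25) and HECTD4 (0.27). Of the neighbours named, ELAPOR2, H3P6, FZD10-AS1, MEMO1 and FZD1 were not called on SOX9 induction (adjusted p = 0.0808, 0.312, 0.549, 0.34 and 0.282, edgeR). The other neighbours were called higher there. Among pairs of the 9 tested genes that include a called one, the closest was CCN2 and NT5E (0.27). NT5E ranked 37 in likeness to CCN2, and CCN2 ranked 109 in likeness to NT5E.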

How the data were processed

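The authors deposited 1 table of raw counts per gene, with a column for each of the 12 libraries. STAR 2.7.0a and hg38 are named in the submitters' processing notes. Per the file headers, the authors counted with featureCounts 2.0.1 on Ensembl release 101, with no paired-end, strand or multiple-mapping option, so each mate of a 150-base pair counted once, totals overstate the number of fragments, and reads of a gene and of an overlapping opposite-strand gene cannot be told apart. Counting-error statements cover counting error only.

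Counts were tested with edgeR 4.0.16 (R 4.3.3) by the robust quasi-likelihood F-test, with all 12 libraries, 1 mean per group, TMM factors (0.981 to 1.02) and filterByExpr, which left 18219 of 60671 genes and 9 of the 10 genes described. The residual degrees of freedom were 6 and the biological coefficient of variation 10.6%. P-values were Benjamini-Hochberg adjusted over the 18219 genes. CPM were computed with the TMM factors. Of all genes 42020 (69.3%) had a symbol. The 8 comparisons were 3 inductions, 3 differences between them (interaction terms) and 2 of uninduced lines. Alternatives were DESeq2 1.42.0, other scalings, no filter, a fit that is not robust, a replicate block, only the lines compared and each library left out. The scripts were tested on simulated data.

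The 10 genes and all lists were chosen with earlier results of these data known. Named besides the 10 genes were YAP1, WWTR1 and the TEAD genes, up to 6 called genes of each list, and the 3 genes of most like pattern for each called gene. Genes printed from the other YAP target and immediate early lists were named after their values were seen. Libraries of a group differed by more than counting noise, so none was treated as the same library deposited again.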

Additional observations from a re-analysis of the deposited data

Results flagged for a closer look

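The response to SOX9 induction differed from the response to GFP induction, by the interaction term of edgeR's quasi-likelihood test adjusted over all genes tested, for VCAN (1.10 on the log2 scale, adjusted p = 0.000839), TGFBI (0.71, adjusted p = 0.00486) and NT5E (0.63, adjusted p = 0.0056). In the SOX9 line the log2 changes were 1.23 for VCAN, 0.53 for TGFBI and 0.65 for NT5E, and in the GFP line 0.13, -0.18 and 0.02. The response to SOX9 differed from the response to M303 for IGFBP3 (0.63, adjusted p = 0.0428), with a log2 change of 0.56 in the SOX9 line and -0.07 in the M303 line. The calls of NT5E and TGFBI were each lost without 1 induced SOX9 library (adjusted p = 0.053 and 0.062), and that of IGFBP3 without any 1 of the 8 SOX9 or M303 libraries (adjusted p up to 0.337), in a fit that is not robust (0.0627) and with the replicate block (0.0791). With 2 libraries in each group, single libraries were not examined for standing apart within a group.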

How the results depend on the processing

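The 5 genes called on SOX9 induction kept their calls under each of the 7 alternatives besides leaving out a library. Without a filter on low counts the number of genes called was 9 on M303 induction, 4 on GFP induction, 270 for SOX9 against GFP induction, 147 for SOX9 against M303, 11 for M303 against GFP, and 17 and 22 for uninduced SOX9 and M303 cells against GFP cells. DESeq2 called 3, 2 and 139 genes on M303 induction, on GFP induction and for SOX9 against M303 induction, and 2 for the uninduced SOX9 line. The fit of only the lines compared called 3 on M303 induction. Of the 9 genes, the number called for SOX9 against M303 induction was 2 without the filter (VCAN 0.71, adjusted p = 0.00666), 3 with DESeq2 (CCN2 0.66, adjusted p = 0.0493, and VCAN 0.72, adjusted p = 0.0195) and 0 in the fit that is not robust. There IGFBP3 had an adjusted p of 0.0627. The sign turned under scaling by total counts for AMOTL2, SOX9 against M303 induction (0.02), and for NT5E, uninduced SOX9 against GFP line (0.00, below 0.01 in size either way). The causes were not tested.

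No label states that the replicate numbers pair the libraries, and same-numbered libraries showed no general tendency to deviate together. Over 11976 genes and 15 pairs of groups the correlation of same-numbered deviations was -0.352 to 0.282 (median -0.0687), over 0.1 in 2. The pairs with and without doxycycline of the same line were not looked at separately. With the replicate block, SOX9 induction had 452 calls against 541 without it and still 5 of the 9 genes, and SOX9 against M303 induction had 0 of the 9 (IGFBP3 0.63, adjusted p = 0.0791). With the block CD44, ITGAV and VIL1 missed the threshold on SOX9 induction (adjusted p = 0.0899, 0.0587 and 0.0832).

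Leaving out 1 library gave 231 to 675 genes called on SOX9 induction (3 to 5 of the 9), 1 to 2 on M303 induction, 0 to 9 on GFP induction, 95 to 229 for SOX9 against GFP induction (2 to 3 of the 9), 57 to 107 for SOX9 against M303 induction (0 to 2 of the 9), 1 to 12 for M303 against GFP induction, and 0 to 39 and 0 to 56 for the uninduced SOX9 and M303 lines. VCAN passed for SOX9 against M303 induction without any 1 of the 4 GFP libraries or replicate 1 of the uninduced SOX9 cells (adjusted p = 0.0269 to 0.0495). The sign turned without some library only for values that were not called, with these ranges of log2 change. On SOX9 induction they were -0.47 to 0.06 for AXL and -0.24 to 0.02 for TEAD4. On M303 induction they were -0.15 to 0.01 for IGFBP3, -0.30 to 0.33 for AXL and -0.37 to 0.02 for F3. On GFP induction they were -0.09 to 0.24 for CCN1, -0.06 to 0.11 for NT5E, -0.03 to 0.14 for IGFBP3 and -0.30 to 0.53 for AXL. For SOX9 against GFP induction AXL gave -0.68 to 0.14. For SOX9 against M303 induction AMOTL2 gave -0.20 to 0.21, AXL -0.48 to 0.13 and F3 -0.28 to 0.11. For M303 against GFP induction CCN2 gave -0.20 to 0.02 and AXL -0.54 to 0.29. For uninduced SOX9 against GFP cells CCN1 gave -0.16 to 0.20, CCN2 -0.11 to 0.10, AMOTL2 -0.22 to 0.19, NT5E -0.09 to 0.08 and AXL -0.47 to 0.20, and for uninduced M303 against GFP cells CCN2 gave -0.13 to 0.07, AXL -0.47 to 0.25 and F3 -0.02 to 0.22. Counts per library were lowest for ANKRD1 (0 to 12), AXL (50 to 129) and CCN1 (104 to 266), and how far depth or the spread between libraries limits them was not tested.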
